A study of Homo sapiens with 4 samples.

Results

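The accessible sites of human chromosome 17 were described by arm, from the ATAC-seq peak lists of 4 libraries. The members are all peaks on this chromosome in the 4 narrow and 4 broad lists, except those touching the megabase from 22 to 23 Mb beside the centromere. They number 2443 of the 78048 peaks on chromosomes 1 to 22 and X, with 787 narrow peaks of 23375 and 1656 broad peaks of 54673. Members were chosen by position alone, but the chromosome was picked because its regional background was already known to differ in 1 control library, so that background is described here without a test.

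In ATAC-seq a transposase inserts adapters into exposed DNA, and a peak is a place where the inserted fragments pile up. The cells were OVSAHO, an established line of ovarian cancer cells. Per the labels, the test cells were of the genotype SMARCA2 stable with SMARCA4 knockdown and the control cells were WT. The series calls them OVSAHO-A2-siA4 and OVSAHO-Ctrl-siNC. All cells, control cells included, had been given carboplatin, a DNA-damaging platinum drug, at 25 µM for 2 days. A library of untreated cells was not analysed here. Each group had 2 libraries, called test 1, test 2, control 1 and control 2. The labels do not say that replicates were separate cultures, so a p-value here reflects the spread among these 4 samples, which may be technical. RNA and protein levels of both genes were not analysed here, so the genotypes rest on the labels alone. Where 4 values stand in a row, they are in the order test 1, test 2, control 1 and control 2.

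SMARCA2 and SMARCA4 are the alternative motor subunits of SWI/SNF complexes, which slide or evict nucleosomes and so change which DNA a transposase can reach. Chromosome 17 is rich in genes. Its long arm carries NF1, ERBB2 and BRCA1. Farther out on the long arm lie TK1, BIRC5 and RPTOR. The regions below are given by hg19 position only, without a gene name.

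Depth differed between libraries. Narrow peaks came from nucleosome-free fragments, 15828837 in control 1 and 6146272 to 7531794 in the other libraries, and broad peaks from all fragments, from 22432549 to 31515662 per library. Nucleosome-free fragments were 50.2% of the fragments of control 1 and 27.4% to 29.6% of those of the others. Control 1 thus stands apart from the other 3 libraries, and results that rest on it are given with and without it.

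The 22 to 23 Mb window left out held 82 narrow and 35 broad peaks. Its first narrow peak in test 1 started at chr17:22020676 with a fold enrichment of 88.2, where fold enrichment is the authors' ratio of fragments at a peak to the background around it. The last narrow peak kept before the window ended in test 1 at position 21979347 with a fold enrichment of 6.06. The first kept after it started in test 1 at 25263835, with 8.59. Between 23 Mb and 25 Mb there was no peak in any list, so the 2 arms are cleanly separated. The long arm was further divided at 70 Mb into a proximal and a distal part, a boundary placed after the values had been seen.

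Chromosome 17 held 131, 171, 280 and 205 narrow peaks in test 1, test 2, control 1 and control 2. Each control count exceeded each test count, at a mean of 242.5 ± 53.0 against 151.0 ± 28.3 peaks (SD, n = 2 libraries each), with an exact permutation p of 0.333, two-sided and the smallest this design allows. As a share of each library's own list the order turned around. Narrow peaks of the chromosome were 3.85% (95% exact interval 3.23 to 4.55), 4.10% (3.52 to 4.75), 2.70% (2.40 to 3.03) and 3.77% (3.28 to 4.31) of the 4 lists. Control 1 was the low library, and control 2 lay within the intervals of both test libraries. These intervals cover counting error only. The group difference in share was -0.740 percentage points (exact permutation p = 0.333), and -0.208 without control 1.

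Broad lists held 349, 423, 360 and 524 peaks of the chromosome. The groups overlapped, at a mean of 442 ± 116 in control and 386 ± 52.3 in test libraries (SD, n = 2 libraries each), with an exact permutation p of 0.667, two-sided. The control excess was 56, and -26 without control 2. These peaks made up 3.92%, 3.03%, 1.95% and 3.92% of the lists. Again control 1 was lowest, although it had the most fragments. Among 23 chromosomes this share ranked 16 in control 1 and 10 to 15 elsewhere. Without control 1 the group difference in share changed sign, from -0.543 to 0.445 percentage points.

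Most peaks of the chromosome lay on the long arm. In narrow lists the long arm held 73.3% (95% exact interval 64.8 to 80.6), 83.0% (76.6 to 88.3), 84.3% (79.5 to 88.3) and 78.5% (72.3 to 84.0) of the peaks. In broad lists it held 69.9%, 73.5%, 78.1% and 71.6%. The control and test means differed by 3.25 percentage points in narrow and 3.09 in broad peaks, each with an exact two-sided permutation p of 0.667. Groups overlapped in both. The narrow difference was -1.63 without test 1, and the broad one was -0.153 without control 1, so neither direction held when 1 library was removed.

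Along the chromosome crowded and empty stretches alternated. The bin from 50 to 55 Mb, the emptiest, held 1, 1, 1 and 0 narrow peaks and 2 to 6 broad peaks. The bin from 10 to 15 Mb on the short arm was also sparse, with 1 or 2 narrow peaks per library and 5 to 9 broad ones. Narrow lists were most even from 40 to 45 Mb, with 21, 19, 18 and 22 narrow peaks. Across the 17 bins the numbers of narrow peaks in pairs of libraries had Spearman coefficients from 0.576 to 0.869. For broad peaks they ran from 0.546 to 0.944, and the 3 pairs with control 1 were the lowest of all 6. Bins of a library share its depth and its threshold, so these are descriptions.

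**Figure D1:**
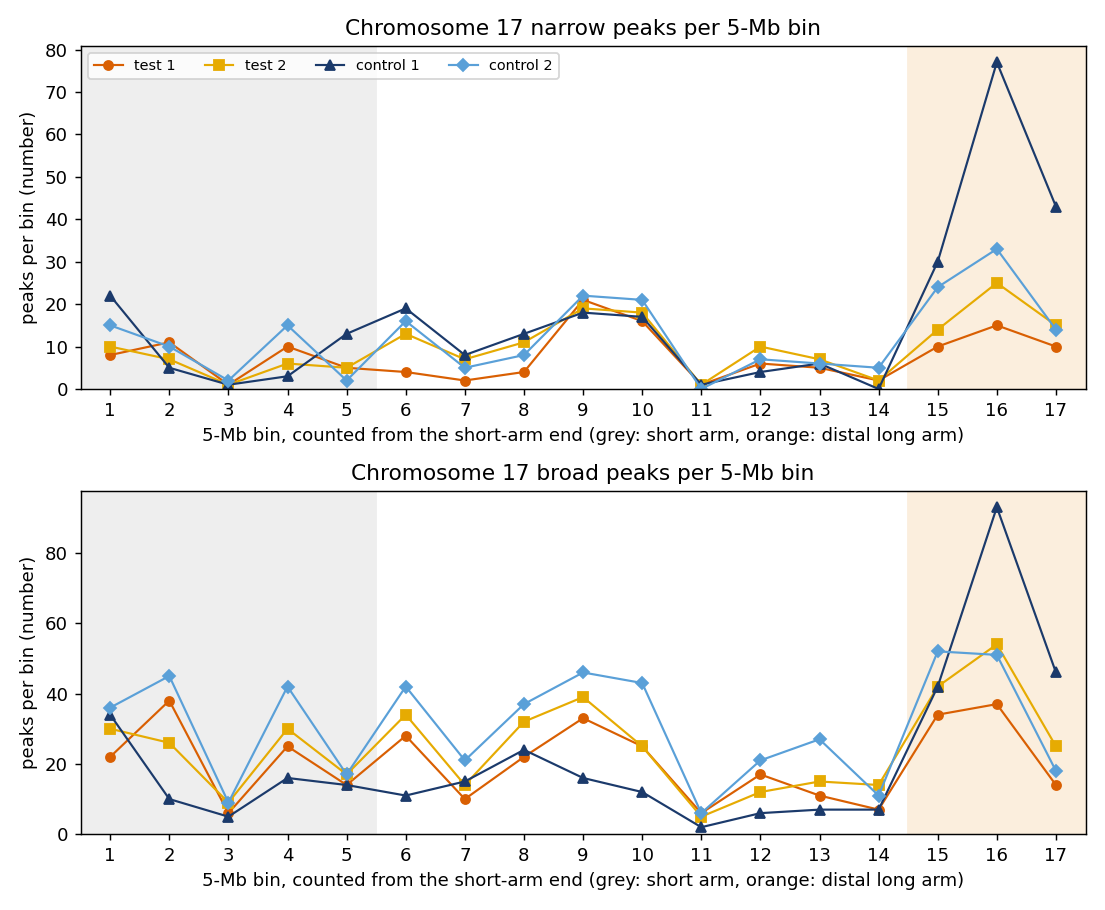
Number of narrow (top) and broad (bottom) peaks in each 5-Mb bin of chromosome 17, counted from the short-arm end, for the 4 libraries. Grey marks the short arm and orange the distal long arm, where control 1 reached 77 narrow and 93 broad peaks in bin 16.

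On the distal long arm control 1 had the most peaks of any library, 150 narrow against 35 to 71 and 181 broad against 85 to 121. On the proximal long arm it had the fewest broad peaks, 100 against 159 to 254. The bin from 75 to 80 Mb held 15, 25, 77 and 33 narrow peaks. The last bin, from 80 Mb to the chromosome end, held 10, 15, 43 and 14. In broad lists the same bins held 37, 54, 93 and 51 peaks, and 14, 25, 46 and 18. Control 1 was the highest of the libraries in both bins and in both kinds of list. These were the only bins of 17 in which control 1 had the most broad peaks, and it had the fewest of any library in 9 others. In the bin from 5 to 10 Mb, for example, there were 38, 26, 10 and 45 broad peaks. In narrow lists control 1 had the most peaks in 8 of the 17 bins and the fewest in 5. The 8 bins included those from 0 to 5 Mb and from 20 to 40 Mb, so being highest was not confined to the distal long arm.

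**Figure D2:**
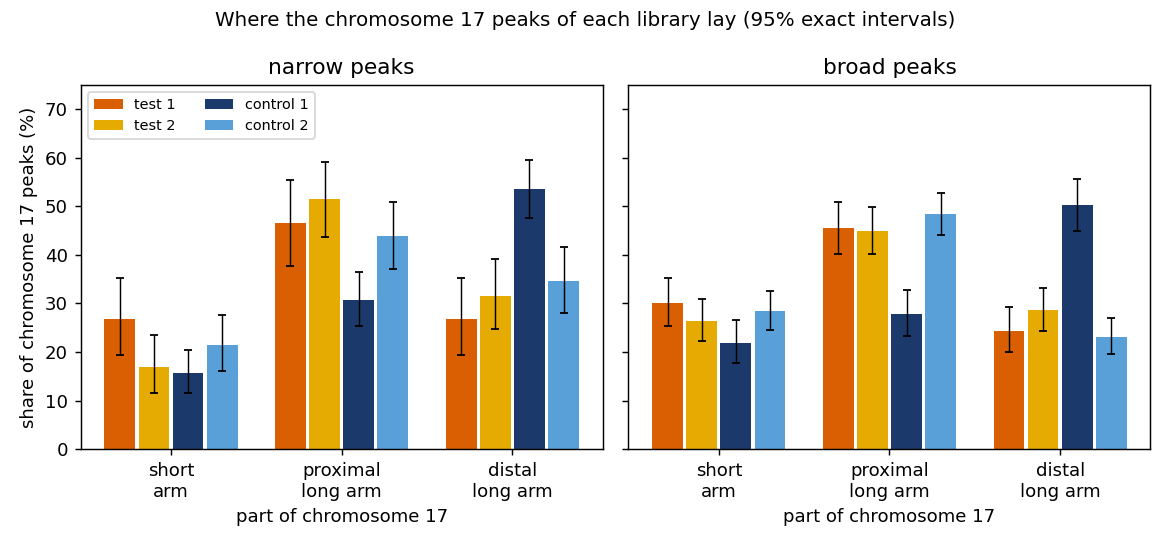
Share of each library's chromosome 17 peaks on the short arm, the proximal long arm and the distal long arm, for narrow (left) and broad (right) peaks, with 95% exact intervals. The distal bar of control 1 stands at 53.6% and 50.3%, above the other 3 libraries.

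The distal long arm thus held 53.6% of the narrow peaks in the list of control 1 (47.5 to 59.5 at 95%), while test 1 had 26.7% (19.4 to 35.2) of its peaks there, test 2 31.6% (24.7 to 39.1) and control 2 34.6% (28.1 to 41.6). In broad lists it held 24.4%, 28.6%, 50.3% and 23.1%. Control 2 was the lowest library in broad peaks and stood between test 2 and control 1 in narrow peaks. The control minus test difference was 14.95 percentage points in narrow peaks, 5.49 without control 1 and 24.4 without control 2. In broad peaks it was 10.2, with -3.39 and 23.8 on leaving out the same libraries. With every list held to the length of the shortest, the distal share of control 1 was still the highest, at 47.6% of its narrow and 54.9% of its broad peaks on the chromosome.

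Set against the whole list of each library, the distal long arm did not stand out in control 1. It held 1.03% (95% exact interval 0.718 to 1.43), 1.29% (0.974 to 1.69), 1.45% (1.23 to 1.70) and 1.30% (1.02 to 1.64) of all narrow peaks, with overlapping intervals. In broad lists it held 0.956%, 0.868%, 0.979% and 0.906%. The rest of the chromosome was where control 1 was low. The short arm held 0.425% of its narrow peaks, against 0.695% to 1.03% in the others, and the proximal long arm 0.830% against 1.65% to 2.11%. Of broad peaks the proximal long arm held 1.79%, 1.36%, 0.541% and 1.90%. Within its list, control 1 was thus low on the rest of the chromosome rather than high on the distal long arm.

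The regional background was recovered for each peak as (pileup + 1) divided by fold enrichment, minus 1. Pileup is the fragment coverage at a narrow peak, or its average over a broad peak. The regional background measures the coverage expected from the surrounding 10000 bp, or from the genome as a whole where that is larger. The genome-wide background is therefore its floor. Values were divided by the median over the library's peaks on all other chromosomes, so that 1 means the usual level of the list. In broad lists this ratio was below 1 in most bins before 70 Mb and 1.81 to 2.26 in the bins beyond.

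**Figure D3:**
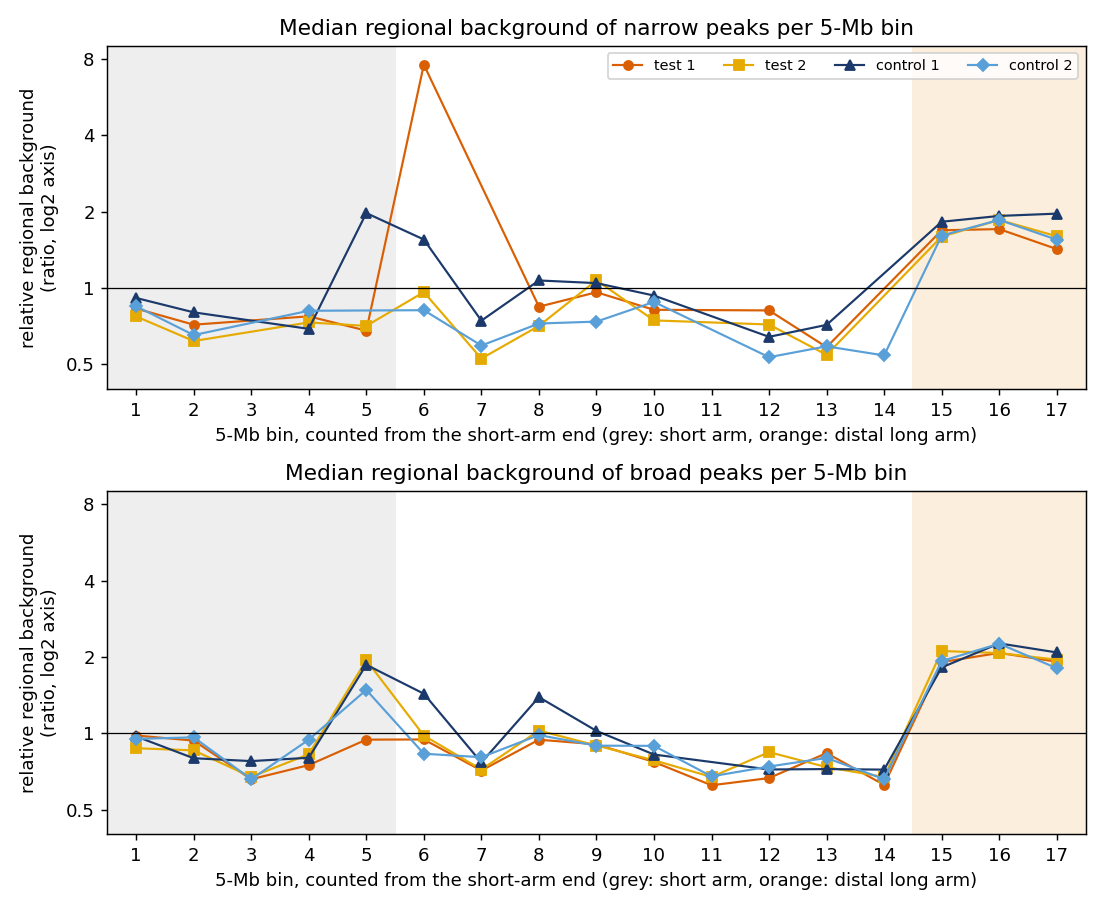
Median regional background of the peaks in each 5-Mb bin, divided by the library's median on other chromosomes, for bins with 3 or more peaks (log2 axis). All 4 libraries lie between 1.81 and 2.26 in the 3 distal bins of broad peaks, and between 0.626 and 0.719 in the bin just before them. Values in that earlier bin are close to the floor set by the genome-wide background.

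In broad lists the bin from 65 to 70 Mb had a relative background of 0.626 to 0.719 over the 4 libraries. Before division its median was 1.52, 1.57, 1.53 and 1.72, close to the genome-wide floors of 1.48, 1.56, 1.53 and 1.72. The local level in this bin may thus be lower than shown, and the size of the rise is not measured exactly. The next bin, 70 to 75 Mb, had 1.91, 2.11, 1.82 and 1.93. From 75 to 80 Mb it was 2.07, 2.07, 2.26 and 2.25, and in the last bin 1.91, 1.95, 2.08 and 1.81. All libraries were high in these 3 bins. Each control value exceeded each test value in the middle one, and the groups overlapped in the other two. Of 496 such bins on all chromosomes, 36 (7.26%) reached 1.5 or more in all 4 libraries, and 3 of the 16 bins of chromosome 17 were among them. In narrow lists 41 of 308 bins (13.3%) did, and 2 of 12 on this chromosome, those from 70 to 80 Mb. The narrow share is near the genome-wide level and shows nothing particular to the chromosome.

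The rise took place within about 3 Mb. In 1-Mb windows of broad peaks, the window from 70 to 71 Mb stood at 0.613, 0.728, 0.719 and 0.708, on 1 to 4 peaks. The window from 73 to 74 Mb stood at 1.69, 1.64, 1.83 and 1.79, on 5 to 25 peaks, and that from 74 to 75 Mb at 2.27, 2.32, 2.38 and 2.60. Over broad peaks from 60 to 72 Mb the median was 0.675 to 0.732 with an upper quartile of at most 0.868. Over those from 73 Mb outward it was 1.97 to 2.24 with a lower quartile of at least 1.59. The interquartile ranges on either side did not overlap in any library. Before division the median from 60 to 72 Mb was 1.76, 1.58, 1.54 and 1.91, beside genome-wide floors of 1.48, 1.56, 1.53 and 1.72. The floor limits how low and how spread the values on that side can be. These 2 stretches were set with the window values known, so their separation is a description and not a test. They leave out the window from 72 to 73 Mb, which stood at 1.87, 1.51, 1.05 and 1.02 on 2, 2, 9 and 7 peaks. Nearer the centromere single windows were high too, such as 36 to 37 Mb at 1.77, 1.75, 1.67 and 1.49.

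**Figure D4:**
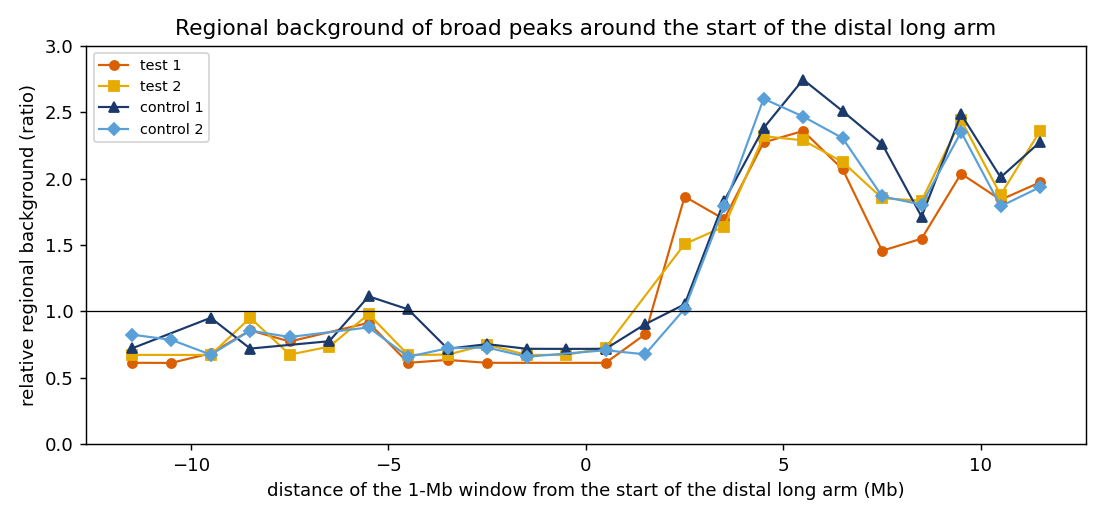
Relative regional background of broad peaks in 1-Mb windows from 58 Mb to the end of the long arm, by distance from the start of the distal part (70 Mb). All values from 3 Mb past the start lie between 1.46 and 2.75, and of the plotted windows before it only 2 of control 1 pass 1, at 1.11 and 1.02.

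Within each library, the ratio of the distal to the proximal median was 2.37, 2.46, 2.23 and 2.47 for broad peaks, a mean of 2.38 ± 0.113 (SD, n = 4 libraries). For narrow peaks it was 2.00, 2.32, 1.84 and 2.31, a mean of 2.12 ± 0.238. Control 1 had the smallest step in both. The proximal medians of broad peaks were 1.36, 1.24, 1.35 and 1.29 times the genome-wide floor, so the broad ratios may understate the step. The proximal long arm and the short arm, by contrast, differed little, with a ratio of 0.961 ± 0.0731 in broad and 1.03 ± 0.0866 in narrow peaks. The contrast between whole arms varied more. Long over short arm gave 1.22, 1.29, 2.04 and 1.09 in broad and 1.41, 1.49, 1.87 and 1.61 in narrow peaks, and was largest in control 1, whose long-arm peaks were mostly distal.

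The step was measured at shared sites too. At the 44 distal and 76 proximal broad regions called in both test libraries and control 2 but not control 1, it was 2.36, 2.49 and 2.50 in the libraries that called them. At 12 distal and 10 proximal narrow regions of the same kind it was 1.80, 2.21 and 2.30. At regions called in all 4 libraries it was not seen. There it was 1.06 to 1.37 over 10 distal and 15 proximal broad regions, and 0.505 to 0.889 over 3 distal and 18 proximal narrow regions. The proximal sites shared by all 4 libraries had a high background of their own, with a narrow median of 0.945 in test 1 against 0.290 over all its proximal peaks. Among peaks with a −log10 q of 5 or more, the narrow ratio was 1.75, 1.85, 0.732 and 1.39, and control 1 had no step. Among broad peaks of that strength it was 2.11, 2.10, 1.05 and 2.33. With lists of equal length the narrow ratio was 0.920 in control 1 and 2.00 to 2.28 elsewhere.

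Taken over the whole chromosome, control 1 had the highest relative background. The narrow medians were 0.962, 0.945, 1.67 and 0.966, and the broad ones 0.975, 1.04, 1.56 and 1.015. Part by part the libraries lay closer. In narrow peaks the distal long arm was at 1.60, 1.73, 1.88 and 1.69, the proximal long arm at 0.802, 0.745, 1.02 and 0.733, and the short arm at 0.736, 0.718, 0.931 and 0.805. With the 3 parts weighted equally, the narrow level was 1.28 in control 1 and 1.05 to 1.08 in the others, and the broad level 1.34 against 1.22 to 1.31. Control 1 was still the highest, by less than over all peaks of the chromosome.

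The remaining gap depended on the scale. Against the genome-wide background, the fragments times their length over the genome size in the file headers, the narrow level with equal weights was 2.18 in control 1, below the 2.29 to 2.44 of the others. The broad level was 1.88, within the range of 1.87 to 2.01. On that scale the distal long arm was at 3.74, 3.77, 3.21 and 3.59 in narrow and 3.22, 3.06, 3.01 and 3.20 in broad peaks. Control 1 was the lowest library in both, where it had been the highest relative to peaks on other chromosomes.

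Chromosomes 12, 19 and 20 gave other levels. The relative background of their broad peaks was 0.758 to 0.848 on chromosome 12, 1.45 to 1.57 on chromosome 19 and 1.75 to 2.00 on chromosome 20, with control 1 inside the range of the others each time. On chromosome 17 control 1 lay outside it, at rank 2 of 23 chromosomes against 7 to 9. In narrow lists control 1 was above the others on chromosome 12 too, at 0.832 against 0.661 to 0.791, and on chromosome 20, at 1.79 against 1.59 to 1.78. In narrow lists, being outside the range was thus not particular to chromosome 17. The gap was larger there, though, at 1.67 in control 1 against 0.945 to 0.966 in the others. No test of this difference was made, because the background was known when the chromosome was chosen.

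Fold enrichment changed less than the background. Its narrow median on the long arm minus that on the short arm was 0.702, 0.487, -0.0836 and 0.0858. Both test values exceeded both control values (exact two-sided permutation p = 0.333, the smallest possible, Benjamini-Hochberg adjusted p = 0.889 over 8 tests). In broad peaks the medians of the 2 arms differed by -0.0634, -0.161, -0.334 and -0.0624, with no order by group (exact permutation p = 1). Distal broad peaks were less enriched than proximal ones in all libraries, with medians of 3.79, 3.24, 3.10 and 3.44 against 4.45, 3.90, 3.57 and 3.93. Yet their coverage was higher, with a median pileup of 20.5, 17.8, 16.3 and 19.7 against 13.0, 11.2, 10.2 and 12.2. Fold enrichment divides by the background, so distal and proximal peaks of equal enrichment do not have equal coverage.

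Strong narrow peaks, with a −log10 q of 5 or more, were most frequent on the proximal long arm in 3 libraries. Their share there was 57.4%, 44.3%, 37.2% and 37.8%, with exact intervals as wide as 44.1 to 69.96 in test 1. On the distal part it was 40%, 31.5%, 24.7% and 38.0%, and on the short arm 25.7%, 24.1%, 29.5% and 29.5%. Of the distal broad peaks, 42.4%, 22.3%, 6.63% and 34.7% were strong, which is 36, 27, 12 and 42 peaks. Control 1 had the most distal broad peaks and the fewest strong ones. On other chromosomes 31.9%, 14.1%, 5.20% and 25.4% of broad peaks were strong, below the distal share in each library. Of narrow peaks there, 45.0%, 38.9%, 25.3% and 41.7% were strong. Control 1 thus had the lowest share on other chromosomes too, and its low distal share is not particular to the distal long arm.

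A narrow peak overlapped a broad peak of its own library less often in control 1. On the distal long arm this share was 82.9% (95% exact interval 66.4 to 93.4), 64.8% (50.6 to 77.3), 50.7% (42.4 to 58.9) and 67.6% (55.5 to 78.2). On the short arm it was 68.6%, 69.0%, 43.2% and 70.5%, and on the proximal long arm 70.5%, 67.0%, 39.5% and 64.4%. Control 1 was lowest on all 3 parts. The same share on other chromosomes was not calculated, so a trait of the whole list of control 1 cannot be told apart. Distal peaks were also the most closely spaced. The median distance between starts of broad peaks was 58.8, 46.2, 34.0 and 41.0 kb, against 127, 119, 164 and 75.9 kb on the proximal long arm.

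To see which sites libraries shared, peaks overlapping by 1 bp or more were merged. Chromosome 17 then had 550 narrow and 1017 broad regions. A single library called 74.5% of the narrow regions, against 81.0% on other chromosomes, and 62.1% of the broad ones, against 70.6%. All 4 libraries called 24 narrow regions, 4.36% (95% exact interval 2.82 to 6.42), beside 3.86% over the genome, and 37 broad regions, 3.64%, beside 3.04%. These shares are near the genome-wide level. They differed by part, with 18 of the 24 narrow regions on the proximal long arm, 3 on the short arm and 3 on the distal long arm.

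**Figure D5:**
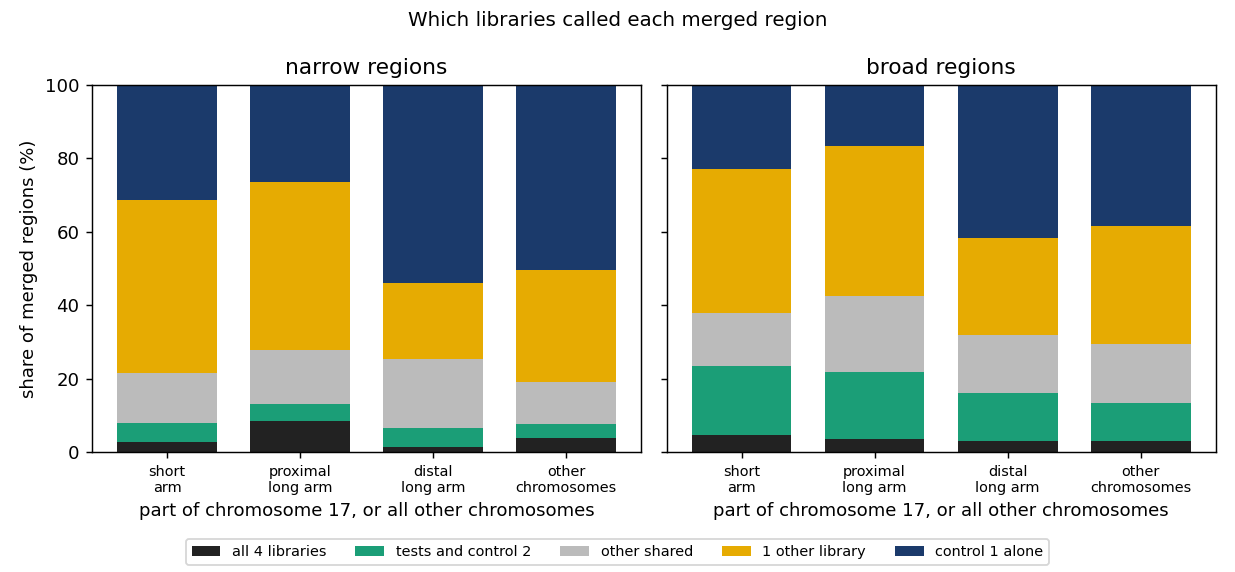
Share of merged narrow (left) and broad (right) regions called in all 4 libraries, in both test libraries and control 2, in other combinations, in 1 library other than control 1, or in control 1 alone. Regions of control 1 alone make up 54.0% of narrow regions on the distal long arm and 26.4% on the proximal long arm.

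Control 1 alone called 213 narrow regions, 38.7% (95% exact interval 34.6 to 42.9), below the 49.9% over the genome. On the distal long arm the share was 54.0% (47.2 to 60.6), on the proximal long arm 26.4% (20.6 to 32.9) and on the short arm 31.2% (22.8 to 40.7). In broad regions it was 41.7%, 16.5% and 22.9%, beside 38% over the genome. Of the 149 distal narrow regions of control 1, test 1 called 3.36%, test 2 13.4% and control 2 9.40%, beside 8.07%, 11.7% and 10.5% of its regions on other chromosomes. Of its 181 distal broad regions they called 8.29%, 21.5% and 7.18%, beside 8.58%, 19.9% and 11.7%. The regions of control 1 were seldom called in another library, both on the distal long arm and on other chromosomes. The distal share was lower for test 1 in narrow lists, with an exact interval of 1.10 to 7.66, and for control 2 in broad lists. For test 2 it was slightly higher in both kinds of list. For the 70 distal narrow regions of control 2, test 1 called 31.4%, beside 35.1% on other chromosomes, and for its 121 broad ones 53.7%, beside 47.6%.

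The strongest sites shared by all 4 libraries lay on the proximal long arm. At chr17:31149430-31149883 the fold enrichment was 27.1, 28.6, 33.3 and 28.0. At chr17:33478109-33478353 it was 24.01, 24.6, 19.98 and 25.3, and at chr17:45234285-45234434 it was 27.3, 21.1, 38.3 and 27.6. The first 2 sites also had a broad peak in all 4 libraries, and the third only in control 1. Fold enrichment is the authors' value for each peak and is ranked only within its own list. No list of problem regions of the genome was applied. On the short arm the shared sites were weaker. The highest ranked, at chr17:21827934-21828024, had 6.42, 6.37, 7.05 and 5.37 and no broad peak in any library. Next came chr17:18684471-18684618 with 4.74, 5.75, 4.22 and 7.71, and chr17:165092-165473 near the tip with 8.38, 5.70, 7.15 and 4.57.

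Shared narrow sites gathered in a pair of megabases of the proximal long arm, singled out after their values were seen. From 45 to 46 Mb there were 9, 13, 11 and 12 narrow peaks, and 8 of the 18 merged regions were called in all 4 libraries. The median fold enrichment there was 11.5, 11.4, 18.1 and 9.23, above the long-arm medians of 6.34, 5.99, 5.05 and 5.84. From 41 to 42 Mb there were 11, 10, 11 and 11 peaks, with 5 of 17 regions called in all 4 libraries and medians of 6.56, 7.15, 8.59 and 6.96. These 2 windows thus held 13 of the 24 sites that all libraries shared. In the crowded window from 80 to 81 Mb on the distal arm, where control 1 had 33 narrow peaks and the others 6 to 12, all 4 libraries shared 2 of 43 regions.

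Sites called in both test libraries and control 2, but not in control 1, numbered 28 narrow regions, 5.09% (95% exact interval 3.41 to 7.27), beside 3.82% over the genome. In broad lists there were 170, 16.7% (14.47 to 19.2), beside 10.5%. Each of the 28 narrow regions had a broad peak in test 1 and in control 2, and 3 had one in control 1. The highest ranked lay at chr17:73901046-73901184 on the distal long arm, where test 1 had a fold enrichment of 10.3, test 2 had 12.1 and control 2 had 11.9. In the same order, others were chr17:40540512-40540634 with 8.05, 8.73 and 8.06, and chr17:80416382-80416614 with 9.02, 7.34 and 9.57. On the short arm they were chr17:7518387-7518592 with 11.2, 6.61 and 6.08, chr17:20946659-20946801 with 5.98, 8.09 and 11.8, and chr17:4634941-4635079 with 6.50, 5.57 and 7.71. All 6 had broad peaks in the same 3 libraries and not in control 1.

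The study's own contrast gave few exclusive sites on the chromosome. Both test libraries and neither control library called 13 narrow regions, 2.36% of 550 (95% exact interval 1.26 to 4.01), beside 1.25% over the genome. Both control libraries and neither test library called 10, 1.82% (0.875 to 3.32), also beside 1.25%. The control-only interval covers the genome-wide share, and the lower bound for test-only regions lies just above it. Regions are not replicates, so the intervals are no test of a difference from the genome. Both shares also depend on how many regions control 1 alone called, 38.7% on the chromosome and 49.9% over the genome. Of the 13 test-only regions, 11 overlapped a broad peak of control 2 and 0 one of control 1, so all-fragment calls placed most of them in a control library too. Test-only regions numbered 15 without control 1 and 40 without control 2, and with a single test library 70 (test 2) or 57 (test 1).

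The highest ranked test-only site, chr17:17875847-17876042 on the short arm, had a fold enrichment of 7.82 and 6.30 in the 2 test libraries. On the proximal long arm followed chr17:57184289-57184416 with 6.39 and 6.76, chr17:62502537-62502651 with 6.60 and 5.99, and chr17:61851051-61851199 with 6.41 and 5.69. On the distal arm lay chr17:73030532-73030664 with 6.07 and 5.90. All 5 had a pileup of 6 to 9 in each test library, and all overlapped a broad peak of control 2. The median pileup of narrow peaks on the chromosome was 7 in both test libraries.

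Of the 10 control-only narrow sites, 6 lay on the distal long arm, which held 226 of the 550 merged regions. They made up 2.65% of the distal regions (exact interval 0.980 to 5.69). The 5 test-only sites there made up 2.21% (0.722 to 5.09). Both intervals cover the share of 1.25% over the genome. Control-only sites made up 0.943% of regions on the proximal long arm and 1.79% on the short arm, on 2 sites each. Regions are not replicates and the counts are small, so whether control-only sites lean to the distal part was not tested. The highest ranked control-only site, chr17:72729520-72729685, stood at 6.07 in control 1 and 7.38 in control 2, with a broad peak in control 1 only. At the end of the arm lay chr17:81083042-81083128 with 7.53 and 5.95, which had a broad peak in all 4 libraries, and chr17:80984794-80984928 with 5.93 and 5.44, which had none. Near the tip of the short arm, chr17:164424-164651 had 5.14 and 6.77, and chr17:64794540-64794627 on the proximal long arm had 5.38 and 5.67, each with broad peaks in all 4 libraries. A broad peak of a test library covered 5 of the 10. Leaving out control 1 gave 107 control-only regions, leaving out control 2 gave 223 and leaving out test 2 gave 18.

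In broad lists 17 regions were test-only, 1.67% of 1017 (95% exact interval 0.977 to 2.66), beside 1.03% over the genome, and 5 were control-only, 0.492% (0.160 to 1.14), beside 1.24%. Of the 17, the short arm held 6, the proximal long arm 9 and the distal long arm 2. Of the 5 control-only regions 4 were proximal, 1 was distal and 0 of 266 short-arm regions were, which allows a share of up to 1.38% (exact interval). The highest ranked test-only regions were chr17:17843818-17844138 at a fold enrichment of 4.76 and 4.06 in the test libraries, chr17:57914942-57915358 with 4.67 and 4.05, and chr17:27475825-27476110 with 4.61 and 4.06. The first 2 had no narrow peak in any library, and the last had narrow peaks in test 2 and control 2. The highest ranked control-only regions were chr17:25283791-25283985 at 3.43 and 3.89 in the control libraries, chr17:34488842-34489342 at 3.03 and 4.22, and chr17:36405508-36405926 at 3.02 and 2.91. Without control 1 there were 21 test-only and 205 control-only broad regions, and without control 2 there were 186 and 274. With a single test library there were 125 (test 2) or 74 (test 1) test-only regions.

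The widest broad regions shared by all 4 libraries lay beside the centromere gap or toward it. At chr17:21904130-21907020, a region 2891 bp wide, the fold enrichment was 2.89, 2.83, 2.96 and 2.88. At chr17:25263199-25265419, at the edge of the gap and 2221 bp wide, it was 3.35, 3.11, 2.92 and 2.97. Both are wide and weakly enriched on a high background. At chr17:19091297-19093491, 2195 bp wide, it was 4.98, 5.73, 5.39 and 6.63, with narrow peaks in every library except control 1.

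The megabases on either side of the gap had a background unlike the rest of their arms. Narrow peaks from 25 to 26 Mb had a relative background of 7.64, 11.7, 15.1 and 10.2, on 3, 5, 16 and 4 peaks. From 21 to 22 Mb it was 2.40 in control 1 on 12 peaks, and 0.698 to 0.788 in the other 3 on 1 to 4 peaks. Broad peaks there stood at 3.28, 3.99, 3.46 and 1.97, high in all 4 libraries. The high value of test 1 in the bin from 25 to 30 Mb, 7.59, rested on 4 narrow peaks, 3 of them in the first megabase. With both megabases left out, the distal to proximal ratio was 2.46 ± 0.0203 in broad and 2.21 ± 0.190 in narrow peaks (SD, n = 4 libraries), with control 1 at 2.43 and 2.08.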

How the data were processed

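Peak lists of 4 ATAC-seq libraries were used, grouped and numbered by the labels. Per the submitters' processing notes, MACS2 2.2.7.1, edgeR 3.34.1, cutadapt 3.2, Picard, deepTools 3.5.1 and Bowtie2 2.3.5.1 were among the tools and hg19 was the genome build. Per the file headers, peaks were called with MACS2 in each library separately, without a control sample, keeping duplicates, at a q threshold of 0.05, an effective genome size of 2.7e9 and a regional range of 10000 bp. Narrow peaks came from nucleosome-free and broad peaks from all fragments. The deposited pileup is a coverage signal, the deposited fold enrichment a ratio to the same library's background, and the deposited p and q values are on the −log10 scale. None is normalized between libraries. For broad peaks pileup and fold enrichment are averages over the peak, so their recovered background is approximate.

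Coordinates are 1-based. Group values were compared with exact two-sided permutation tests over 6 assignments, 8 tests in all. Shares have exact (Clopper-Pearson) intervals at 95%, for counting error alone. Peaks were merged at 1 bp of overlap. Regions were named by a fixed rule. It takes the highest scores of each sharing class, 3 per arm for narrow regions of all 4 libraries or of all but control 1, 5 for narrow test-only and control-only regions, 3 for broad ones, and the 3 widest broad regions of all 4 libraries. The score is the smallest percentile of fold enrichment in a defining library's own list. Members, lists and rules were chosen with earlier results of these data known. Alternatives were lists cut to equal length, peaks at −log10 q 5 and above, the 22 to 23 Mb window kept, each library left out, a replicate block, 50% overlap, merging within 100 bp, medians of 5-Mb bins with 3 or more peaks, only peaks over 1% above the genome-wide background, and peaks per 1000000 fragments. Leaving out both gap-side megabases, the 70 Mb boundary and the stretches on either side of 72 to 73 Mb were added after the data were seen. Merging was tested on simulated data, where 3000 of 3000 regions were assigned rightly. The simulated sites lay too far apart to touch, so this checks the code and not the merging of crowded or chained peaks. An hg19 annotation and genome were not used here, so a planned list of genes and all sequences were left out. Calculations used scipy 1.17.1, pandas 2.3.3 and numpy 2.4.6 in Python 3.11.15, with figures drawn in matplotlib 3.10.9.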

Additional observations from a re-analysis of the deposited data

How the results depend on the processing

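The control excess in narrow peaks became -22.5 at equal list lengths and -0.621 per 1000000 fragments. The broad excess became -21.5 at a −log10 q of 5 or more, -45.5 at equal lengths and -0.737 per 1000000 fragments, with a range of -26 to 138 when 1 library was left out. The long-arm share difference became -3.40 (narrow) and -1.43 (broad) at the stricter threshold. Left-out libraries gave -1.63 to 8.13 and -0.153 to 6.34, a broad share of list of -1.53 to 0.445, a broad fold enrichment difference of -0.222 to 0.0496 and a broad distal share difference of -3.39 to 23.8. The narrow long over short arm background was 2.203 at the stricter threshold, 1.09 with the 22 to 23 Mb window kept and 1.15 as medians of bins. The distal over proximal background was 1.43 (narrow) and 1.90 (broad) at the stricter threshold, 1.85 in narrow peaks at equal lengths, and in broad peaks 2.53 as medians of bins and 2.12 only above the genome-wide background. It stayed above 1 in every alternative as a mean of libraries, but fell below 1 in narrow peaks of control 1 at the stricter threshold (0.732) and at equal lengths (0.920). Test-only counts were 7 (narrow) and 4 (broad) at the stricter threshold, and 15 to 70 and 21 to 186 with a library left out. Control-only counts were 1 and 1, then 11 to 223 and 5 to 274, were 3 and 1 at equal lengths, and 3 in broad lists at 50% overlap. With a replicate block the control excess was still 91.5 narrow and 56 broad peaks. Each had an exact permutation p of 0.5, the smallest that the 4 assignments of the block allow, so no tested difference could go below it. The labels do not say that replicate numbers pair libraries. The cause of these changes was not tested. The median pileup of narrow peaks on the chromosome was 7 to 9, and whether depth limits the calls was not tested.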
